A study of Mus musculus with 12 samples.

Results

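Nuclear receptors that respond to foreign compounds, oxysterols, bile acids, fatty acids and hormones were followed in mouse liver before and after partial hepatectomy. The set holds 9 of the 17097 genes measured and was chosen by gene name: Nr1i2, Nr1i3, Nr1h3, Nr1h4, Rxra, Ppard, Esrra, Nr3c1 and Thrb. All 9 were measured. Each was read from the probe set that the annotation gives to that gene alone and that had the highest mean log2 value over the 12 arrays, out of 17 such probe sets. Liver was taken from adult Socs2-null mice on a C57BL/6 background and from adult C57BL/6 wildtype mice, without an operation (0 h) and 24 and 36 h after removal of 2/3 of the liver. The Socs2 protein restrains signalling downstream of growth hormone. Each of the 6 groups has 2 arrays, and each array was hybridized with the combined RNA of 3 animals, so n is the number of pools, which limits the precision and lets p-values measure only the spread between these pools. No source used here gives the animals' sex, the hour of harvest or how the null allele was made. No group had a sham operation, so in each comparison of times the loss of liver and the surgery cannot be told apart.

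Nuclear receptors are transcription factors that bind small lipophilic molecules and then exchange corepressors for coactivators at their target genes. Many bind DNA as a pair with RXRα, on combinations of the hexamer AGGTCA, while the glucocorticoid receptor is held by chaperones until its hormone arrives and then binds as a homodimer. In liver they adjust drug clearance, sterol and bile acid disposal, fuel use and the response to stress hormones, and several of them are known to affect regeneration after hepatectomy.

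The deposited values are intensities on a linear scale. Levels are given in these units as mean ± SD (n = 2 pools), and the level of one gene cannot be set against that of another. Changes are differences in log2(intensity + 16) with their standard errors, and p-values come from limma, adjusted by Benjamini and Hochberg's method over all 17097 genes. A gene passed at an adjusted p under 0.05, and folds come from the same scale and understate the change of dim genes. Socs2 measured 23.2 to 29.5 on the 6 Socs2-null arrays, under the brightest tag control (a spot with no mouse target) on all 6, and 116 to 546 on the 6 wildtype arrays. Array medians lay between 43.5 and 52.3, and Pearson's r across probe sets was 0.985 to 0.995 within groups. Of 8 hepatocyte markers measured, none lay under background in any group, and their summed intensity was 107172 to 110263 at 0 h against 89555 to 95245 afterwards. The summed intensity of 5 erythroid markers was 12752 to 13736 at 0 h against 4034 to 6785 afterwards, that of 10 sinusoidal endothelial markers was 3968 to 4352 at 0 h against 2746 to 3817 afterwards, and that of 12 proliferation markers was 1195 to 1254 at 0 h against 1602 to 3633 afterwards. On neutrophil markers, replicate 2 of Socs2-null liver at 24 h stood apart, with a sum of 1883 against 383 to 636 on the other 11 arrays, and without it the 24 h fall of Nr3c1 in that genotype did not pass. The part of these cell types in the results was not tested. The mean log2 level of 18 hybridization control probe sets, spiked in before hybridization, was 9.86 to 9.98 at 0 h, 9.34 to 9.90 at 24 h and 9.01 to 9.23 at 36 h, so it moved with time. A fit with this level as a covariate was added after the data were seen, and it is given beside the receptors' calls and the gene lists. In bulk liver RNA, fewer cells of a type and less RNA per cell cannot be told apart.

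Of the 9 receptors, 4 passed in at least 1 comparison of a later time with 0 h, and none passed between the genotypes. With 2 pools a group, the latter does not show that the genotypes are alike. On the probe sets used for the genes, Nr3c1 alone kept its calls with the hybridization covariate. A second Rxra probe set, described below, rose and also passed with it. Averaged over both genotypes, Nr3c1 fell and Ppard and Nr1i2 rose at 24 h against 0 h, and Nr1h4 joined Nr3c1 among those lower at 36 h. At 24 h 2 of the 9 were higher (Nr1i2 and Ppard) and 1 was lower (Nr3c1), where 43.2% of all genes passed, 17.6% as higher and 25.6% as lower. At 36 h 2 were higher (the same pair) and 2 were lower (Nr3c1 and Nr1h4), where 33.8% of all genes passed, 14.4% as higher and 19.4% as lower. With 3 and 4 of 9 called, the set was near this background. The median change of the 9 was -0.08 at 24 h and -0.07 at 36 h on the log2 scale, and that of all genes was -0.06 and -0.05.

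The promoters of the receptors that moved are shown for Nr1i2, which rose, Ppard, which rose, and Nr1h4, which fell. They are the 250 bases before the annotated start in RefSeq on GRCm38.p6, where 8 of the 9 receptors had an entry. Capitals mark matches on either strand to the receptor hexamer AGGTCA, its variant GGGTCA, the Sp1 box GGGCGG or the E-box CACGTG, and no matches in these windows overlap. The Nr1i2 window lies at chr16:38294825-38295074 on the minus strand, the Ppard window at chr17:28232504-28232753 on the plus strand, and the Nr1h4 window at chr10:89506659-89506908 on the minus strand, at a start 26987 bases inside the annotated gene.
Nr1i2: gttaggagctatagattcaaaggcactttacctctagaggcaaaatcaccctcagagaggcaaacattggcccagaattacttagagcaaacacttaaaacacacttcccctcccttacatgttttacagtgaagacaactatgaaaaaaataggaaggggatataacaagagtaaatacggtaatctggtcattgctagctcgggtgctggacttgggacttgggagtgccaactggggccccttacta
Ppard: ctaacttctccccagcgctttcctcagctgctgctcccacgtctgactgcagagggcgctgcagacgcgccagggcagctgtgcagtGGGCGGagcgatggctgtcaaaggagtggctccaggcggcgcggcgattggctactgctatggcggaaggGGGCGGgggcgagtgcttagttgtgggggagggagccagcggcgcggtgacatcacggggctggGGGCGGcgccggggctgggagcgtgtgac
Nr1h4: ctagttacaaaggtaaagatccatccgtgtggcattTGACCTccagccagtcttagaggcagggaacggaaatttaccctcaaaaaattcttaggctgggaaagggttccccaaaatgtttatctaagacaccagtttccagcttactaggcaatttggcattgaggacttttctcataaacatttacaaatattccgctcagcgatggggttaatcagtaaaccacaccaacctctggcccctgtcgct
The Nr1i2 window held none of the motifs, and 44% of its bases were G or C. The Ppard window, with 69.6% G or C, held 3 copies of GGGCGG, which begin 163, 93 and 29 bases before the start. The Nr1h4 window held 1 copy of AGGTCA on the other strand, printed as TGACCT, 214 bases before the start. Among 32851 windows of this length in the table, 14% held the receptor hexamer, 11.6% its variant, 32.7% the Sp1 box and 6.02% the E-box. A match in these letters is a description of the window and not a binding site.

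**Figure D1:**
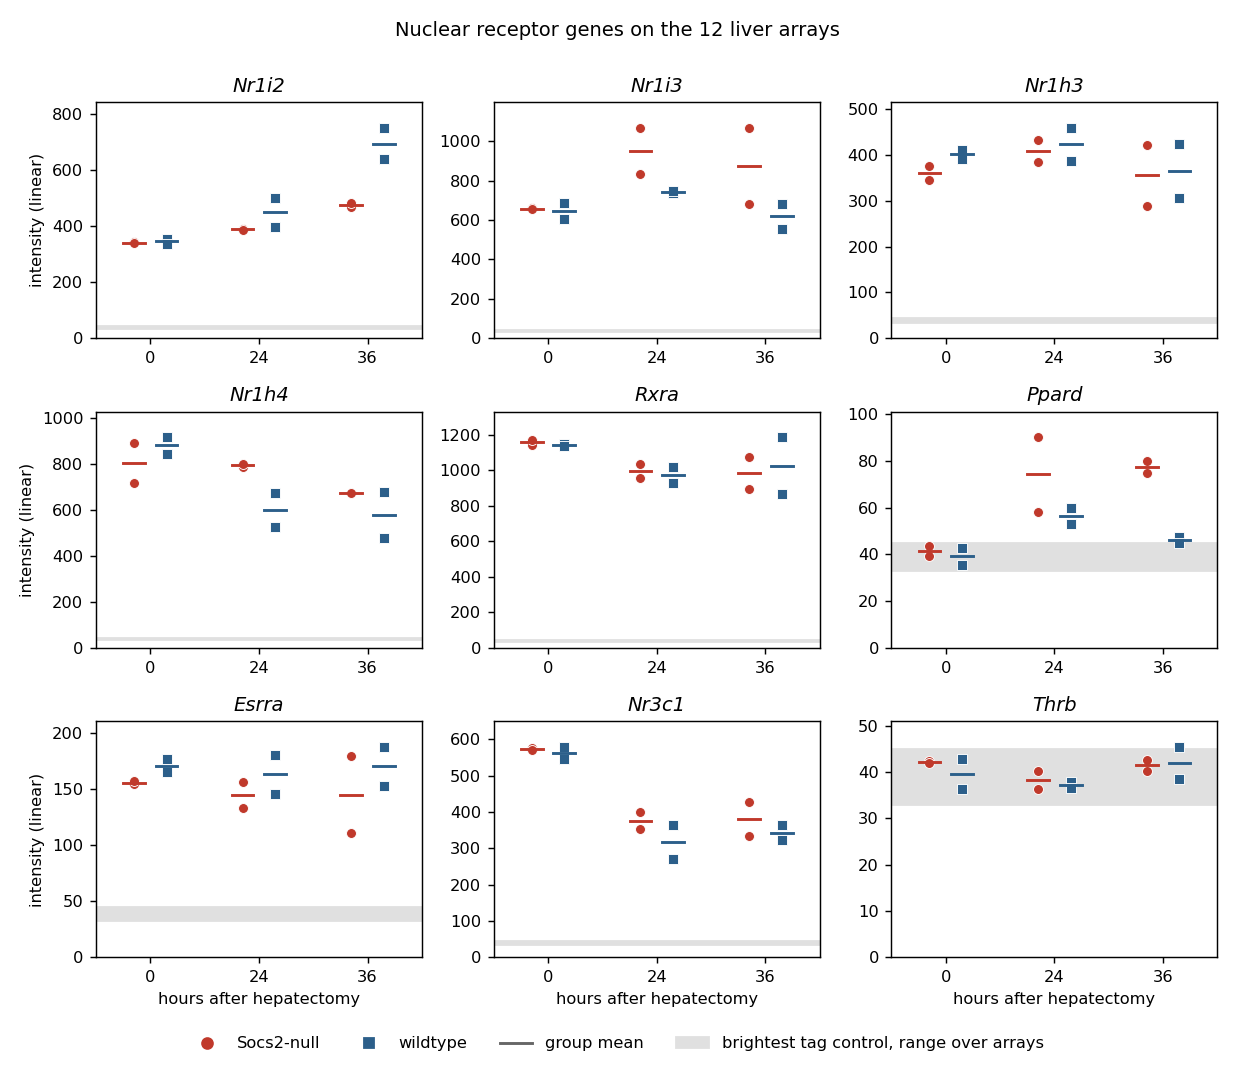
Intensity (linear, each panel with its own scale from 0) of the 9 receptor genes on the 12 arrays at 0, 24 and 36 h, with Socs2-null pools as circles and wildtype pools as squares; short lines are group means and the grey band spans the brightest tag control over the arrays (33.0 to 45.0). Nr3c1 lies at 546 or above on the 4 arrays at 0 h and at 427 or below on the other 8, Nr1i2 is highest in wildtype liver at 36 h (638 and 751), and Thrb stays within or near the band. How many of all genes split the 12 arrays as Nr3c1 does was not counted.

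Nr3c1 encodes the glucocorticoid receptor, through which corticosterone induces gluconeogenic and stress genes in liver. In Socs2-null liver it measured 576 and 570 at 0 h, 400 and 353 at 24 h, then 334 and 427 at 36 h. The wildtype arrays gave 579 and 546 at 0 h, 270 and 365 at 24 h, then 324 and 363 at 36 h. In each genotype the arrays at 24 h and those at 36 h lay below its arrays at 0 h. With 2 arrays a group such separation was common: in Socs2-null liver 62% of all genes did not overlap with 0 h at 24 h and 62.1% at 36 h, and in wildtype liver 70.7% and 64.7%. At 24 h it fell by 0.59 ± 0.16 in Socs2-null liver (limma, adjusted p = 0.0232) and by 0.81 ± 0.16 in wildtype liver (adjusted p = 0.00579). The change at 36 h was -0.58 ± 0.16 in Socs2-null liver (adjusted p = 0.0282) and -0.69 ± 0.16 in wildtype liver (adjusted p = 0.0176). Averaged over the genotypes, the level at 24 h was 0.616 times that at 0 h (adjusted p = 0.000712). At 36 h the ratio was 0.644 (adjusted p = 0.00165).

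These averaged falls of Nr3c1 kept their call in each of the 23 alternatives, single arrays left out among them, at -0.97 to -0.54 for 24 h and -1.38 to -0.28 for 36 h. The end of the last range nearest to 0 came from averaging all probe sets of the gene. Within a genotype the call was lost more often, also with arrays centred on their medians in Socs2-null liver at both times and with averaged probe sets in both genotypes at 36 h. For 24 h it ended in Socs2-null liver without either 0 h array or replicate 2 of 24 h (adjusted p = 0.101 to 0.106), and in wildtype liver without replicate 1 of 0 h or of 24 h (0.0515 to 0.0532). For 36 h it ended in Socs2-null liver without either 0 h array or replicate 1 of 36 h (adjusted p = 0.121 to 0.180), and in wildtype liver without any 1 of the 4 arrays compared (0.0518 to 0.118).

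Nr3c1 has 5 probe sets, which were compared in a fit to all 45037 probe sets that called 35.8% of them for 24 h and 28.3% for 36 h against 0 h over both genotypes. The second brightest Nr3c1 set fell by 0.71 ± 0.10 at 24 h (adjusted p = 0.000208) and by 0.63 ± 0.10 at 36 h (adjusted p = 0.000612), and passed at both times with the hybridization covariate. The next set in brightness, whose name marks it as open to cross-hybridization, fell by 0.92 ± 0.16 at 24 h (adjusted p = 0.00118) and stood at -0.38 ± 0.16 at 36 h (adjusted p = 0.103). With the hybridization covariate it stood at -0.79 at 24 h (adjusted p = 0.0398) and at -0.004 at 36 h (adjusted p = 0.998). In wildtype liver at 24 h it measured 93.4 and 42.3, the widest gap between replicates among its groups. The remaining sets did not pass against 0 h at either time over both genotypes. They lay at 54.75 to 75.05 and at 24.09 to 52.48 over the 12 arrays, and the dimmest exceeded the brightest tag control on 5 of 12. That dimmest set moved up at 36 h, by 0.18 to 0.30 with any 1 array left out, but stood at -0.33 with the hybridization covariate (adjusted p = 0.482). At 24 h it stood at -0.28 to -0.10 with any 1 array left out and at -0.39 with the covariate (adjusted p = 0.0206).

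**Figure D2:**
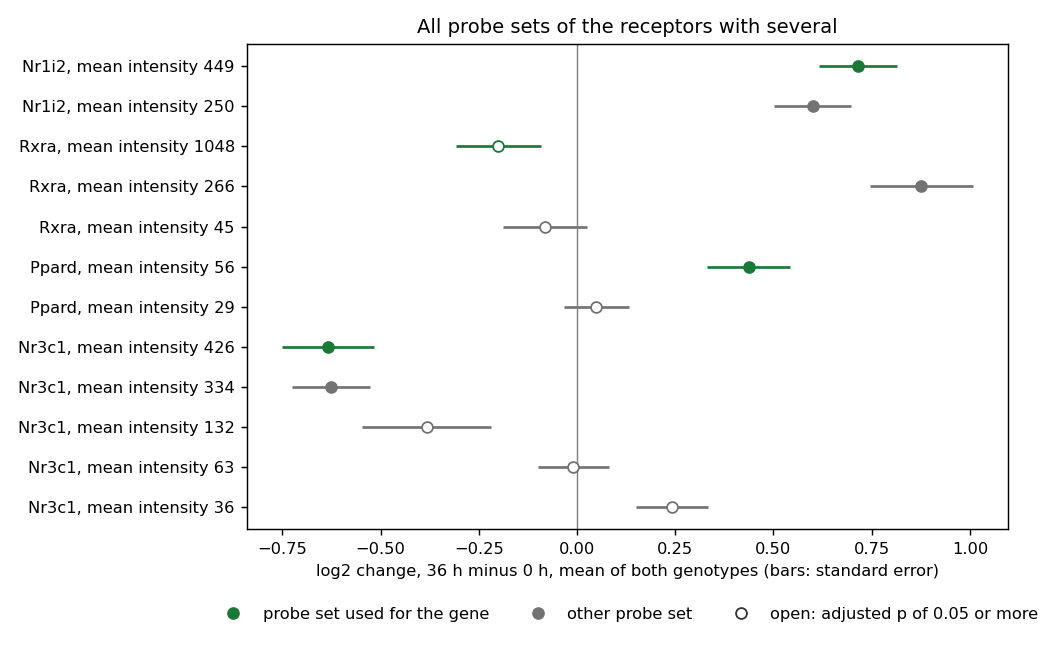
Log2 change at 36 h against 0 h, averaged over both genotypes, for every probe set of the 4 receptors that have several, with the probe set used for the gene in green, others in grey, filled points past an adjusted p of 0.05 over all probe sets and bars for the standard error. The Rxra set used stands at -0.20 while its second set stands at 0.88, and the 2 Nr1i2 sets lie at 0.71 and 0.60.

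Nr1i2 encodes PXR, the pregnane X receptor, which senses drugs, steroids and bile acids and induces Cyp3a enzymes and transporters. It measured 343 and 339 in Socs2-null liver at 0 h, 391 and 386 at 24 h, then 467 and 482 at 36 h. Wildtype liver gave 356 and 336 at 0 h, 398 and 500 at 24 h, then 638 and 751 at 36 h. Both genotypes lay higher at each later time without overlap, and the Socs2-null arrays at 36 h lay below the wildtype arrays at 36 h. Such separation was common against 0 h, as given for Nr3c1. Between 24 and 36 h it held for 33% of all genes in Socs2-null liver and 46.1% in wildtype liver. Between the genotypes at 36 h it held for 32.9%. At 36 h Nr1i2 rose by 0.46 ± 0.14 in Socs2-null liver (adjusted p = 0.0351), a 1.38-fold level. In wildtype liver it rose by 0.97 ± 0.14 (adjusted p = 0.00127), a 1.96-fold level. The change at 24 h was 0.18 ± 0.14 in Socs2-null liver (adjusted p = 0.362) and 0.35 ± 0.14 in wildtype liver (adjusted p = 0.0773), where it passed with arrays centred on their medians. Its second probe set stood at 0.21 ± 0.10 at 24 h over both genotypes (adjusted p = 0.110) and did not pass with any 1 array left out. It rose by 0.60 ± 0.10 at 36 h (adjusted p = 0.000721), which became 0.21 with the hybridization covariate (adjusted p = 0.740). In Socs2-null liver alone that set stood at 0.37 ± 0.14 (adjusted p = 0.0909), where 15.8% of all probe sets passed.

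The rise of Nr1i2 over both genotypes was 0.71 ± 0.10 at 36 h (adjusted p = 0.000264), and it passed without any 1 array. With the hybridization controls as a covariate it was 0.35 (adjusted p = 0.492). The same covariate gave 0.10 in Socs2-null liver (adjusted p = 0.872) and 0.60 in wildtype liver (adjusted p = 0.291). The Socs2-null call also ended with quantile normalization, with only the arrays compared, and without any 1 of the 4 arrays at 0 h or the 2 Socs2-null arrays at 36 h (adjusted p = 0.0623 to 0.151). The averaged 24 h rise of 0.27 ± 0.10 (adjusted p = 0.0425) ended with the covariate (0.14, adjusted p = 0.460), with quantile normalization, and without any 1 of the 4 arrays at 0 h, either Socs2-null array at 24 h or replicate 2 of wildtype liver at 24 h (adjusted p = 0.0689 to 0.152). Between 36 and 24 h it stood at 0.45 ± 0.10 over both genotypes (adjusted p = 0.0731).

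Set against 24 h, no receptor passed at 36 h in limma or with plain eBayes, where 0.00585% of all genes passed in Socs2-null liver, 0.24% in wildtype liver and 0.287% over both. At an unadjusted p under 0.05 the number of receptors was 0 in Socs2-null liver, 1 in wildtype liver and 1 over both, in each case Nr1i2. The same counts over all 17097 genes were 1228, 2546 and 2823, so the receptors were not above this background.

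Ppard encodes PPARδ, a fatty acid receptor that promotes lipid oxidation. In Socs2-null liver it measured 39.4 and 43.8 at 0 h, 90.2 and 58.4 at 24 h, then 80.0 and 74.7 at 36 h. Its wildtype values were 35.4 and 42.9 at 0 h, 52.9 and 59.8 at 24 h, then 47.4 and 45.1 at 36 h. All later arrays lay above those of the same genotype at 0 h. In these comparisons 62% to 70.7% of all genes did not overlap. The probe set is dim, and at 0 h 1 of 2 arrays in each genotype exceeded the brightest tag control. Ppard rose by 0.63 ± 0.15 at 24 h (adjusted p = 0.0120) and by 0.70 ± 0.15 at 36 h (adjusted p = 0.00799) in Socs2-null liver. Wildtype liver stood at 0.39 ± 0.15 at 24 h (adjusted p = 0.0749) and then at 0.18 ± 0.15 at 36 h (adjusted p = 0.459). That wildtype value at 24 h passed in 5 of 22 alternatives: quantile normalization, arrays centred on their medians, only the arrays compared, and either Socs2-null array of 24 h left out.

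Over both genotypes Ppard was 1.42-fold higher at 24 h (adjusted p = 0.00286) and then 1.35-fold higher at 36 h (adjusted p = 0.00882), also without any 1 array. With the hybridization controls as a covariate the change was 0.31 at 24 h (adjusted p = 0.107) and turned to -0.12 at 36 h (adjusted p = 0.857). In Socs2-null liver the covariate gave 0.36 at 24 h (adjusted p = 0.201) and then 0.15 at 36 h (adjusted p = 0.812). The Socs2-null call at 24 h also ended with averaged probe sets and with only the arrays compared, and both calls ended without replicate 1 of 0 h or replicate 1 of the later time (adjusted p = 0.0647 to 0.0777 for 24 h and 0.0504 to 0.0609 for 36 h). The second Ppard probe set lay under the brightest tag control on 11 of 12 arrays, so it has no usable measure of the change, and averaging it in gave 0.22 for 24 h over both genotypes.

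Nr1h4 encodes FXR, the bile acid receptor, which limits bile acid synthesis and drives bile acid export. It measured 719 and 890 in Socs2-null liver at 0 h, 787 and 802 at 24 h, then 674 and 674 at 36 h. Levels in wildtype liver were 917 and 845 at 0 h, 528 and 672 at 24 h, then 676 and 479 at 36 h. Wildtype arrays after hepatectomy lay below those at 0 h. Of all genes 70.7% did not overlap there at 24 h, and 64.7% at 36 h. Socs2-null arrays of Nr1h4 at 24 h lay between those at 0 h. In Socs2-null liver it stood at -0.01 ± 0.18 at 24 h (adjusted p = 0.974) and then at -0.24 ± 0.18 at 36 h (adjusted p = 0.373). It fell by 0.55 ± 0.18 at 24 h (adjusted p = 0.0402) and by 0.61 ± 0.18 at 36 h (adjusted p = 0.0378) in wildtype liver. Averaged over the genotypes, its level at 36 h was 0.743 times that at 0 h (adjusted p = 0.0213).

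The Nr1h4 calls were close to the threshold. In wildtype liver they ended without either 0 h array, and also without replicate 1 of 24 h for the first (adjusted p = 0.124 to 0.237) or replicate 2 of 36 h for the second (0.142 to 0.272). Centring the arrays on their medians ended both, fitting only the arrays compared ended that at 36 h, and the hybridization covariate ended both (adjusted p = 0.0677 at 24 h and 0.504 at 36 h). The averaged call at 36 h ended without replicate 2 of Socs2-null liver at 0 h, either wildtype array at 0 h or replicate 2 of wildtype liver at 36 h (adjusted p = 0.0507 to 0.0893), and its change was -0.38 with the hybridization covariate (adjusted p = 0.626).

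By genotype, 1 of the 9 receptors was higher (Ppard) and 1 lower (Nr3c1) at 24 h in Socs2-null liver, where 24.2% of all genes passed, 10.8% as higher and 13.5% as lower. In wildtype liver at 24 h none was higher and 2 were lower (Nr1h4 and Nr3c1), where 25.8% of all genes passed, 10.2% as higher and 15.6% as lower. At 36 h 2 were higher (Nr1i2 and Ppard) and 1 was lower (Nr3c1) in Socs2-null liver, where 20% of all genes passed, 9.84% as higher and 10.1% as lower. In wildtype liver at 36 h 1 was higher (Nr1i2) and 2 were lower (Nr1h4 and Nr3c1), where 15.2% of all genes passed, 5.69% as higher and 9.5% as lower. The comparisons of 24 and 36 h with 0 h share the 0 h arrays.

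**Figure D3:**
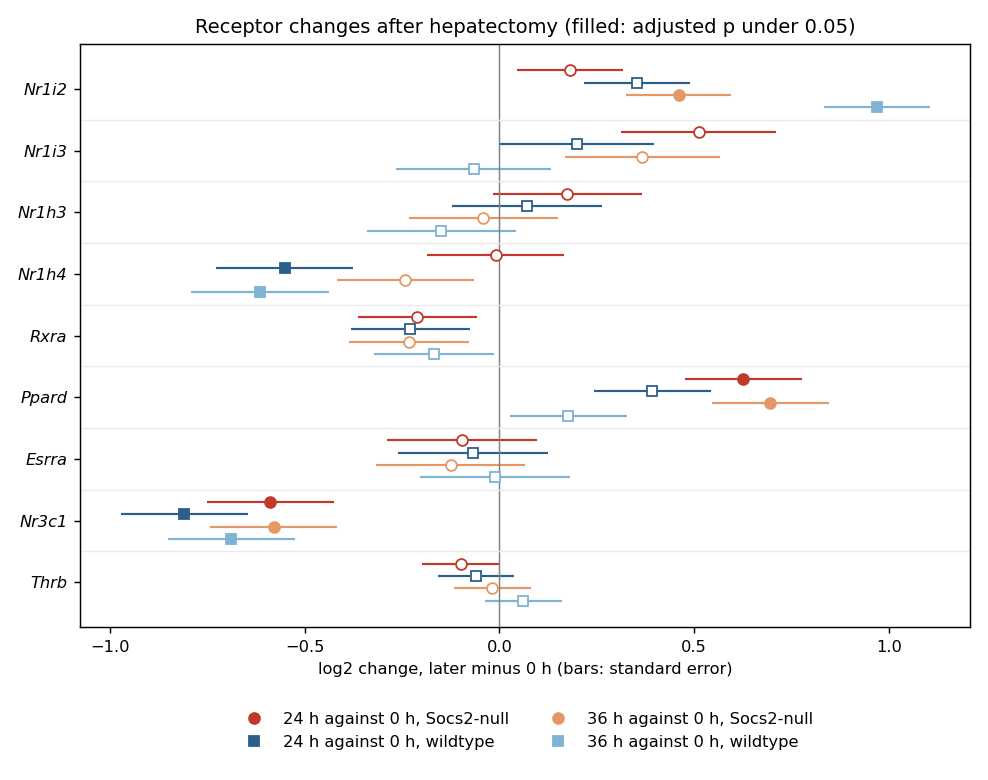
Log2 change against 0 h at 24 and 36 h for each receptor in Socs2-null liver (circles) and wildtype liver (squares), with bars for the standard error and filled symbols where the adjusted p was under 0.05. Nr3c1 is filled on the left in all 4 comparisons, between -0.81 and -0.58, while Nr1i3, Nr1h3, Rxra, Esrra and Thrb have no filled symbol.

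Rxra encodes RXRα, the common dimer partner of PXR, CAR, LXR, FXR, PPARδ and the thyroid hormone receptor. The probe set used measured 1144 and 1171 in Socs2-null liver at 0 h, 1038 and 959 at 24 h, then 897 and 1077 at 36 h. On wildtype arrays it measured 1146 and 1138 at 0 h, 926 and 1021 at 24 h, then 1187 and 867 at 36 h. The arrays at 24 h in both genotypes, and those at 36 h in Socs2-null liver, lay below the same genotype's arrays at 0 h. In these comparisons 62% to 70.7% of all genes did not overlap. The exception was wildtype liver at 36 h, where replicate 1 lay above both arrays at 0 h. The change over both genotypes was -0.22 ± 0.11 at 24 h (adjusted p = 0.124) and then -0.20 ± 0.11 at 36 h (adjusted p = 0.178). The value at 24 h passed with only the arrays compared, and that at 36 h passed when the exception, replicate 1 of wildtype liver at 36 h, was left out (adjusted p = 0.0324).

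A second Rxra probe set moved the other way. Socs2-null liver gave 158 and 165 at 0 h, 179 and 280 at 24 h, then 375 and 366 at 36 h. Wildtype liver gave 182 and 196 at 0 h, 362 and 318 at 24 h, then 346 and 263 at 36 h. Both genotypes lay above their 0 h arrays at both later times, where 62% to 70.7% of all genes did not overlap. Over both genotypes the set rose by 0.61 ± 0.13 at 24 h (adjusted p = 0.00337) and by 0.88 ± 0.13 at 36 h (adjusted p = 0.000424). It passed without any 1 array and with the hybridization covariate (adjusted p = 0.000672 at 24 h and 0.00844 at 36 h). The remaining Rxra set was dim, at 34.25 to 56.58, and did not pass. The sources used here do not say which transcripts each set reads, so no single direction is given for Rxra.

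Nr1i3 encodes CAR, the constitutive androstane receptor, which induces Cyp2b and Cyp2c enzymes. It measured 660 and 655 in Socs2-null liver at 0 h, 1069 and 834 at 24 h, then 679 and 1067 at 36 h. In wildtype liver the values were 687 and 605 at 0 h, 738 and 747 at 24 h, then 681 and 555 at 36 h. The later Socs2-null arrays lay above those at 0 h, and the wildtype arrays did so at 24 h alone. In these comparisons 62% to 70.7% of all genes did not overlap. No comparison passed. The change at 24 h was 0.51 ± 0.20 in Socs2-null liver (adjusted p = 0.0831) and 0.20 ± 0.20 in wildtype liver (adjusted p = 0.490). Its 36 h counterpart was 0.37 ± 0.20 in Socs2-null liver (adjusted p = 0.227) and -0.07 ± 0.20 in wildtype liver (adjusted p = 0.855). Over both genotypes Nr1i3 stood at 0.36 ± 0.14 at 24 h (adjusted p = 0.0610), a value that passed in 5 of 23 alternatives: arrays centred on their medians, only the arrays compared, and 1 of 3 Socs2-null arrays left out (replicate 2 of 24 h and either array of 36 h). Without replicate 1 of Socs2-null liver at 36 h the Socs2-null values passed at both times, and without replicate 2 of that group the value at 24 h did.

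Nr1h3 and Esrra did not pass in any of the 15 comparisons. Nr1h3 encodes LXRα, the oxysterol receptor, and ranged from 289 to 459 over the 12 arrays with a median of 389. Its change over both genotypes was 0.12 ± 0.14 at 24 h (adjusted p = 0.492) and then -0.10 ± 0.14 at 36 h (adjusted p = 0.620). Esrra encodes ERRα, an orphan receptor that drives mitochondrial genes, and ranged from 111 to 188 with a median of 157. It stood at -0.08 ± 0.14 at 24 h (adjusted p = 0.649) and then at -0.07 ± 0.14 at 36 h (adjusted p = 0.732), with 95% intervals of -0.38 to 0.22 and -0.37 to 0.23. For both genes the replicates at 36 h lay far apart. Nr1h3 then measured 289 and 421 in Socs2-null liver and 423 and 305 in wildtype liver, and Esrra measured 111 and 180 in Socs2-null liver and 188 and 153 in wildtype liver. The lower array was replicate 1 of Socs2-null liver and replicate 2 of wildtype liver for Nr1h3, Esrra, Rxra and Nr1i3 alike. Thrb, near background, had the same order. The share of all genes with this order was not counted.

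Thrb encodes the thyroid hormone receptor β, the main liver form. Its probe set measured 36.36 to 45.45 and exceeded the brightest tag control on 8 of 12 arrays, and on neither array of wildtype liver at 24 h. Changes over both genotypes were -0.08 ± 0.07 at 24 h (adjusted p = 0.379) and then 0.02 ± 0.07 at 36 h (adjusted p = 0.837). At this signal a change of Thrb was not detectable.

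Socs2-null liver was then set against wildtype liver at each time, which asks whether loss of the growth hormone brake alters the receptors. No receptor passed at 0 h, 24 h or 36 h or averaged over the 3 times, in limma or in any alternative, plain eBayes included. Of all genes 0% passed at 0 h, 0.0117% at 24 h, 0.0234% at 36 h and 0.0292% on average. At an unadjusted p under 0.05 the number of receptors was 0 at 0 h, 1 at 24 h, 3 at 36 h and 3 on average. The same counts over all 17097 genes were 847, 1408, 1101 and 1750. At 36 h and on average the share of the receptors lay above that of all genes, but none passed after adjustment. The average includes the 36 h arrays, and the receptors were chosen with earlier results of these data known. At 0 h the differences of the receptors ran from -0.15 to 0.07 on the log2 scale, and their 95% intervals stayed within -0.57 to 0.46.

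Nr1i2, Ppard and Nr1i3 were the 3 receptors at 36 h. Nr1i2 averaged 475 ± 10.5 in Socs2-null liver and 695 ± 80.0 in wildtype liver, a log2 difference of -0.53 ± 0.14 (limma, adjusted p = 0.440, 0.172 to 0.949 over the alternatives). Its second probe set averaged 265 ± 38.0 in Socs2-null liver and 365 ± 23.4 in wildtype liver, a difference of -0.44 ± 0.14 (adjusted p = 0.704), where 0.0222% of all probe sets passed. Ppard averaged 77.3 ± 3.73 in Socs2-null liver and 46.2 ± 1.68 in wildtype liver, a difference of 0.58 ± 0.15 (adjusted p = 0.440, 0.115 to 0.808 over the alternatives). The arrays of both genotypes did not overlap for these sets, which was also so for 32.9% of all genes in this comparison. Nr1i3 averaged 873 ± 274 in Socs2-null liver and 618 ± 89.1 in wildtype liver, a difference of 0.46 ± 0.20 (adjusted p = 0.748), and these groups overlapped. At 24 h the 1 receptor was Nr1h4, which averaged 795 ± 10.3 in Socs2-null liver and 600 ± 102 in wildtype liver, a difference of 0.41 ± 0.18 (adjusted p = 0.593).

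The difference between the genotypes in their response was tested as an interaction. No receptor passed at 24 h or at 36 h in limma or with plain eBayes, where 0% and 0.00585% of all genes did, and 0 and 2 receptors had an unadjusted p under 0.05, as did 646 and 640 of all 17097 genes. The response of Nr1i2 at 36 h differed by -0.51 ± 0.19 in Socs2-null against wildtype liver (adjusted p = 0.999, 95% interval -0.93 to -0.09). That of Ppard at 36 h differed by 0.52 ± 0.21 (adjusted p = 0.999, 95% interval 0.05 to 0.98), and that of Nr1h4 at 24 h by 0.54 ± 0.25 (adjusted p = 1.000). A call for Ppard in Socs2-null liver and for Nr1h4 in wildtype liver is therefore not shown to be a difference between the genotypes.

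**Figure D4:**
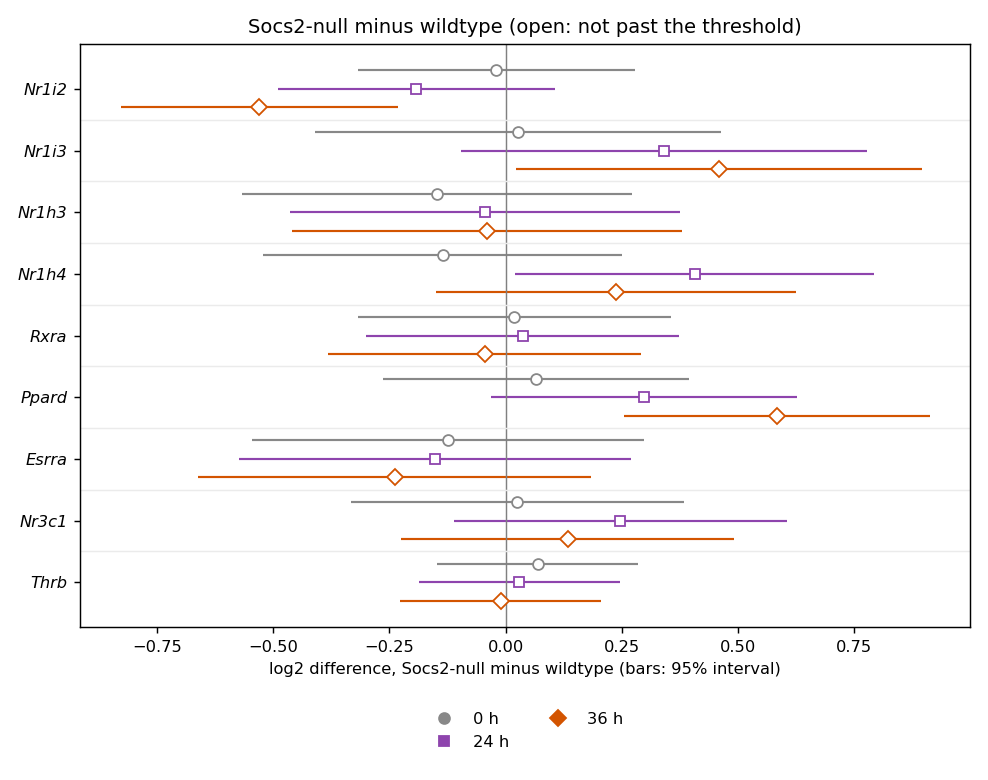
Log2 difference of Socs2-null minus wildtype liver for each receptor at 0 h (circles), 24 h (squares) and 36 h (diamonds), with 95% intervals; all symbols are open because no adjusted p was under 0.05. The 36 h intervals of Nr1i2 (-0.83 to -0.23), Ppard (0.25 to 0.91) and Nr1i3 (0.02 to 0.90) leave out 0 before adjustment for 17097 genes. So does the 24 h interval of Nr1h4 (0.02 to 0.79).

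Genes that these receptors regulate were listed from general knowledge, and each list is described by its counts over both genotypes, to be read beside the shares of all genes given above and the median of all genes (-0.06 at 24 h and -0.05 at 36 h). No measured PXR target was higher at the times when Nr1i2 was. At 24 h 0 of 9 rose and 6 fell, and at 36 h 0 rose and 3 fell, with medians of -0.27 and -0.15. Over the 23 alternatives 0 rose and 3 to 6 fell at 24 h, and 0 to 1 rose and 2 to 4 fell at 36 h. Cyp3a25, a steroid and drug hydroxylase, averaged 1985 in Socs2-null liver and 2720 in wildtype liver at 24 h, against 6155 in Socs2-null liver and 5488 in wildtype liver at 0 h, a change of -1.34 ± 0.15 (adjusted p = 8.43e-05). Cyp3a11, the main PXR-induced oxidase in mouse liver, changed by -0.27 ± 0.05 at 24 h (adjusted p = 0.00157), and Ces2a, a carboxylesterase, by -1.23 ± 0.20 at 36 h (adjusted p = 0.00110).

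Of 10 CAR targets 2 rose and 7 fell at 24 h, and 2 rose and 4 fell at 36 h, with medians of -0.49 and -0.31. Cyp2b10, the gene most used as a readout of CAR, averaged 1667 in Socs2-null liver and 1503 in wildtype liver at 36 h, against 98.5 in Socs2-null liver and 73.9 in wildtype liver at 0 h, a rise of 3.98 ± 0.40 (adjusted p = 0.000186). Gadd45b, a growth arrest and stress gene, rose by 1.15 ± 0.14 at 36 h (adjusted p = 0.00017). Abcc2, a canalicular exporter of conjugates, fell by 1.02 ± 0.11 at 24 h (adjusted p = 6.01e-05), and Cyp2c50 fell by 0.62 ± 0.08 (adjusted p = 0.000202). With the hybridization covariate, 1 CAR target rose and 0 fell at 36 h. Over the 23 alternatives 4 to 7 fell at 24 h, with 4 without replicate 1 of Socs2-null liver at 0 h, without replicate 2 of wildtype liver at 0 h, and with arrays centred on their medians.

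Of 11 LXR targets 1 rose and 8 fell at 24 h, and 1 rose and 7 fell at 36 h, with a median of -0.50 at both times. The pair of sterol export transporters fell together at 24 h, Abcg8 by 1.86 ± 0.12 (adjusted p = 1.98e-06) and Abcg5 by 1.59 ± 0.21 (adjusted p = 0.000244). Scd1, a fatty acid desaturase, fell by 0.67 ± 0.09 at 24 h (adjusted p = 0.000261). Of 17 FXR targets 1 rose and 9 fell at 24 h, and 2 rose and 9 fell at 36 h, with medians of -0.40 and -0.56. Abcb11, the bile salt export pump, fell by 1.31 ± 0.22 at 24 h (adjusted p = 0.000991), and Slc27a5, a bile acid CoA ligase, by 0.65 ± 0.10 (adjusted p = 0.000458). Apoc2, a cofactor of lipoprotein lipase, rose by 0.76 ± 0.06 at 24 h (adjusted p = 1.04e-05). With the hybridization covariate, 1 LXR target and 1 FXR target fell at 36 h. Over the other 22 alternatives no count of targets that fell at 36 h moved by over 1.5 times in either list, and over all 23 the numbers at 24 h were 6 to 8 LXR targets and 7 to 10 FXR targets. In 9 of the 23, 1 FXR target rose at 36 h in place of 2.

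Of 7 PPARδ targets 3 rose and 2 fell at 24 h, and 3 rose and 1 fell at 36 h, with a median of 1.09 at both times. Plin2, a coat protein of lipid droplets, rose by 1.34 ± 0.14 at 24 h (adjusted p = 6.4e-05), and Angptl4, an inhibitor of lipoprotein lipase, by 1.09 ± 0.19 (adjusted p = 0.00112). Cpt1a, the gatekeeper of mitochondrial fatty acid oxidation, fell by 0.61 ± 0.09 at 24 h (adjusted p = 0.00034). It was also the 1 gene of these lists that differed between the genotypes at 36 h, at 1447 in Socs2-null liver and 3065 in wildtype liver, a difference of -1.07 ± 0.13 (adjusted p = 0.0236). Of 16 ERRα targets 4 rose and 3 fell at both times, with a median of -0.09, and 0 passed at 36 h with the hybridization covariate. Over the 23 alternatives 1 to 5 ERRα targets fell at 24 h. The number was 1 without replicate 1 of wildtype liver at 0 h or at 24 h, and 5 without replicate 1 of Socs2-null liver or replicate 2 of wildtype liver at 24 h. At 36 h it was 1 without replicate 2 of wildtype liver at 0 h. Of the PPARδ targets 2 to 4 rose at each time over the alternatives, and 2 rose and 0 fell at 36 h with the hybridization covariate. The number of PPARδ targets that fell at 36 h was 0 or 2 in 9 of the 23, centred medians and single arrays left out among them. Cycs, Idh3a and Mdh2, genes of respiration and the citrate cycle, were among the 4 ERRα targets that rose at 24 h. They rose by 0.71 ± 0.07, 0.70 ± 0.13 and 0.54 ± 0.10, while 3 other ERRα targets fell. The ERRα counts at 24 h were near the shares of all genes, of which 17.6% rose and 25.6% fell.

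Targets of the glucocorticoid receptor rose more often than they fell while Nr3c1 was lower. Of 14 measured, 7 rose and 3 fell at 24 h, and 7 rose and 0 fell at 36 h, with medians of 0.60 and 0.64. Over the 23 alternatives 6 to 9 rose at 24 h and 5 to 9 at 36 h. Fkbp5, a cochaperone of the receptor and its target, averaged 792 in Socs2-null liver and 810 in wildtype liver at 24 h, against 221 in Socs2-null liver and 259 in wildtype liver at 0 h, a rise of 1.66 ± 0.12 (adjusted p = 7.06e-06). Mt1, a metallothionein, rose by 2.59 ± 0.25 at 24 h (adjusted p = 0.000122), and Igfbp1, which binds insulin-like growth factors, by 2.12 ± 0.29 (adjusted p = 0.000645). Of 9 thyroid hormone receptor targets 2 rose and 5 fell at 24 h, and 3 rose and 1 fell at 36 h, with medians of -0.30 and -0.03. With the hybridization covariate 3 of these fell at 24 h and 1 rose at 36 h. The number that rose at 36 h was also 1 without replicate 1 of Socs2-null liver at 0 h or 36 h, or without replicate 1 of wildtype liver at 0 h. Dio1, the deiodinase that activates thyroxine, fell by 1.37 ± 0.12 at 24 h (adjusted p = 1.96e-05) and by 1.42 ± 0.12 at 36 h (adjusted p = 1.64e-05). Several of these genes answer to other regulators too, and the part of the receptors in their changes was not tested.

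**Figure D5:**
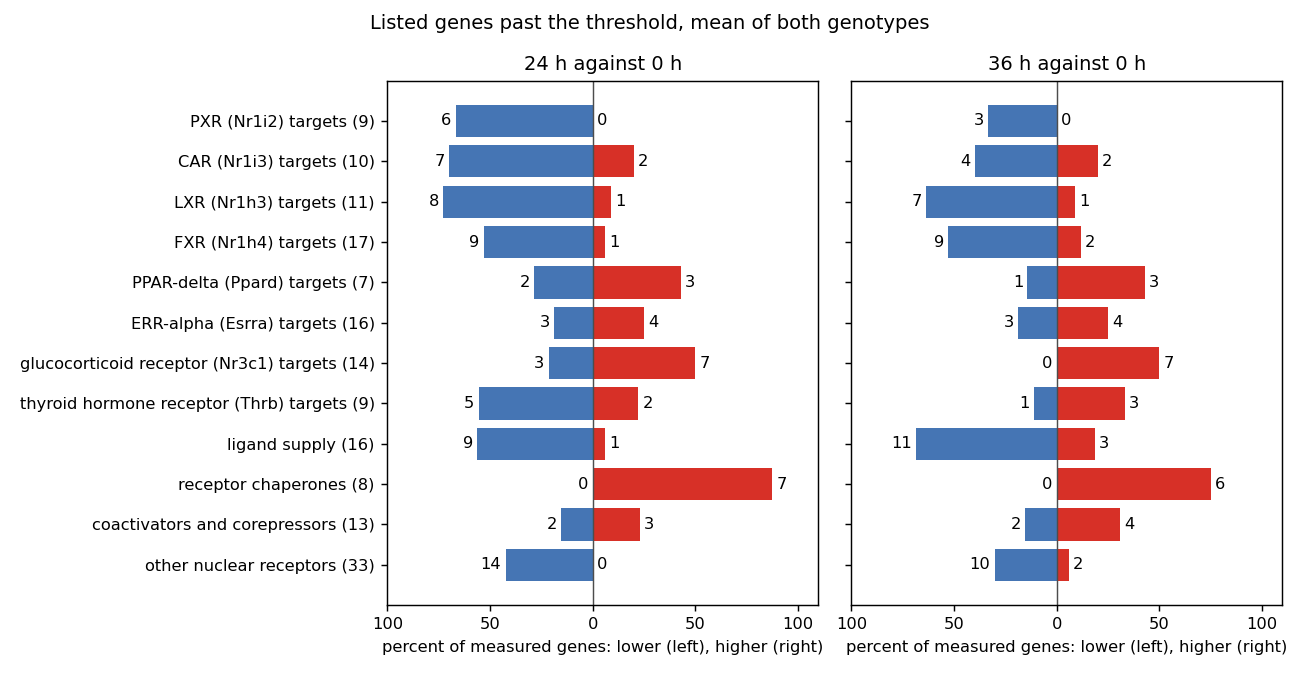
Percent of the measured genes of each list that were past the threshold at 24 h and at 36 h against 0 h, over both genotypes, with those lower drawn to the left, those higher to the right and the counts at the bar ends; the number measured stands in brackets. Receptor chaperones reach furthest to the right (7 and 6 of 8), LXR targets and ligand supply furthest to the left (8 of 11 at 24 h and 11 of 16 at 36 h).

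Genes that supply or remove the receptors' ligands mostly fell. Of 16 measured, 1 rose and 9 fell at 24 h, and 3 rose and 11 fell at 36 h, with medians of -0.49 and -0.65. Of all genes 17.6% rose and 25.6% fell at 24 h, and 14.4% rose and 19.4% fell at 36 h. Akr1d1, which reduces steroids and bile acid precursors, fell by 2.21 ± 0.17 at 24 h (adjusted p = 8.58e-06), and Cyp27a1, the sterol hydroxylase that makes oxysterols and bile acids, by 0.83 ± 0.10 (adjusted p = 7.68e-05). Hsd11b1, which regenerates active glucocorticoid, fell by 0.84 ± 0.11 at 36 h (adjusted p = 0.00018), while H6pd, which feeds it reducing power, rose by 0.56 ± 0.07 at 24 h (adjusted p = 0.000125). With the hybridization covariate, 1 gene of the list rose and 5 fell at 36 h. The number that rose was also 1 without either wildtype array at 0 h or replicate 1 of wildtype liver at 36 h.

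The genes most like each receptor over the 12 arrays were taken from the 8549 genes with the highest means, as a description over arrays that share groups and normalization. For Nr3c1 they were Nr3c2 (Pearson's r = 0.98), the mineralocorticoid receptor, then F11 and Samd8. For Nr1i2 they were Esd (0.95), Setd5 and Man1a2, for Ppard Adar (0.93), Tm9sf1 and Umps, and for Nr1h4 Flcn (0.92), Kin and Fhit. For Nr1i3 they were Gimap8 (0.96), Cdkal1 and Nono, for Nr1h3 Mrps11 (0.96), Nudt22 and Nfu1, and for Rxra Cfhr2 (0.95), Ndufb10 and Arl3. For Esrra they were Nudt1 (0.91), Ddc and Ss18l2, and for Thrb, which is near background, Elf2 (0.79), Med24 and Klf9.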

How the data were processed

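Liver RNA was measured on 12 Affymetrix mouse arrays with 45141 probe sets. The deposited values are intensities on a linear scale, processed by the authors in steps not given in the sources used here. Per the labels, each array holds biotin-labelled cRNA from 10 micrograms of total RNA of 3 animals, and 2 arrays per group limit the precision. By the platform annotation 28898 probe sets name 1 gene, 551 name several and 15588 name none, beside 104 controls. Per gene the probe set with the highest mean log2(value + 16) was used, which left 17097 genes with no filter on low values. The brightest of 17 tag controls on each array served as background.

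A model of the 6 group means was fitted across the 12 arrays in limma 3.58.1 (R 4.3.3, eBayes with trend and robust, two-sided). Adjustment was by Benjamini and Hochberg's method with a threshold of 0.05. The 15 comparisons were genotypes at each time and on average, times within and over genotypes, and the 2 interactions. The fit was tested on simulated data. All receptors were named, and from each list up to 4 members past the threshold with the smallest adjusted p in a comparison, some of which were left out for length. The receptors and lists were chosen with earlier results of these data known. Nothing in the labels says that same-numbered arrays share animals or days. Deviations of same-numbered arrays from their group means correlated at -0.50 to 0.35 over 15 pairs of groups, so the arrays were not treated as pairs. The closing section gives the alternatives. Figures used Python 3.11.15 and matplotlib 3.10.9.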

Additional observations from a re-analysis of the deposited data

How the results depend on the processing

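The receptor calls were repeated under 23 alternatives: quantile normalization, arrays centred on their medians, pseudocounts of 1 and 64, the dimmest 50% of genes left out, averaging the probe sets of each gene, cross-hybridizing probe sets left out, plain eBayes, a replicate block, only the arrays compared, each of 12 arrays left out, and, added after the data were seen, the hybridization controls as a covariate. Of 387 values for the 17 calls, 323 kept the call, 63 lost it and 1 changed direction, Ppard at 36 h over both genotypes, which stood at -0.12 with the hybridization covariate. With that covariate 1 receptor, Nr3c1, was called in each of the 6 comparisons of a later time with 0 h, against 2 to 4 without it. The cause was not tested. These counts rest on the probe set used for each gene, and the second Rxra probe set passed with the covariate over both genotypes at 24 and 36 h. The replicate block ended both Nr1h4 calls in wildtype liver (adjusted p = 0.0552 at 24 h and 0.0544 at 36 h), which left 1 call at 24 h against 2 and 2 at 36 h against 3, and it ended no other call. In Socs2-null liver at 24 h the count was 1 against 2 with arrays centred on their medians, the dimmest 50% left out (which leaves Ppard untested), averaged probe sets and only the arrays compared. With only the arrays compared, 5 receptors were called at 24 h over both genotypes against 3, with Nr1i3 and Rxra added. With single arrays left out the number called in Socs2-null liver was 0 to 3 at 24 h and 0 to 3 at 36 h, in wildtype liver 0 to 3 and 1 to 3, and over both genotypes 2 to 4 and 3 to 5. Counts for the genotypes, their interactions and 36 against 24 h were 0 under all alternatives run. Ppard and Thrb lie near background, so their folds are understated or not measurable.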

Other observations

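Other nuclear receptors fell more often than they rose after hepatectomy. Over both genotypes 0 of 33 measured rose and 14 fell at 24 h, and 2 rose and 10 fell at 36 h, where the medians were -0.17 and -0.11. Of all genes 17.6% rose and 25.6% fell at 24 h, and 14.4% rose and 19.4% fell at 36 h. Nr1d2, a heme-binding repressor of the clock, averaged 190 in Socs2-null liver and 280 in wildtype liver at 24 h, against 1046 in Socs2-null liver and 974 in wildtype liver at 0 h, a change of -2.11 ± 0.20 (limma, adjusted p = 3.49e-05). Ppara, the fatty acid receptor most abundant in hepatocytes by general knowledge, fell by 0.98 ± 0.10 at 24 h (adjusted p = 5.23e-05), and Nr3c2, the mineralocorticoid receptor, by 1.10 ± 0.12 (adjusted p = 6.94e-05). Rora, an activator within the clock, rose by 1.18 ± 0.13 at 36 h (adjusted p = 7.82e-05). With the hybridization covariate 0 rose and 3 fell at 36 h. Over the 23 alternatives 0 to 2 rose and 10 to 14 fell at 24 h. In each group 7 to 9 of the 33 lay under the brightest tag control on both arrays. The hour of harvest is not given, so its part in the changes of clock genes was not tested.

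Proteins that work with the receptors were counted in the same way, to be read beside the same shares of all genes. Of 8 chaperones of steroid receptors, 7 rose and 0 fell at 24 h, and 6 rose and 0 fell at 36 h, and with the hybridization covariate 1 rose at 36 h. Hsp90aa1 averaged 3042 in Socs2-null liver and 2338 in wildtype liver at 24 h, against 644 in Socs2-null liver and 864 in wildtype liver at 0 h, a rise of 1.83 ± 0.16 (adjusted p = 2e-05). Of 13 coactivators and corepressors, 3 rose and 2 fell at 24 h, and 4 rose and 2 fell at 36 h. The counts at 24 h were near the shares of all genes. With the hybridization covariate 3 rose and 1 fell at 24 h, and 1 rose and 1 fell at 36 h. With arrays centred on their medians 5 rose and 1 fell at 24 h. Ppargc1b, a coactivator of oxidative genes, fell by 1.62 ± 0.13 at 24 h (adjusted p = 8.58e-06), while Tbl1xr1, a part of the corepressor exchange complex, rose by 0.84 ± 0.13 (adjusted p = 0.000438) and Prmt1, an arginine methyltransferase coactivator, by 1.25 ± 0.21 (adjusted p = 0.000923).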
